A study of Mus musculus with 3 samples.

Results

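The genes described here encode the proteasome and the ubiquitin-conjugating enzymes of the mouse, and the measurement is binding of EZH2 at their gene ends in macrophages. Members were all protein-coding genes of the RefSeq table of GRCm38.p6 (mm10) whose symbol begins with Psm, a letter from a to g and a digit (51 genes), or with Ube2 and a letter (37 genes). They are 88 of 21883 protein-coding genes on the autosomes, X and Y. In 3 of the 88 the symbol misleads. Psmc3ip encodes a partner of meiotic recombinases, Psme3ip1 a protein that binds PSME3, and Ube2cbp, also called Ube3d, is not an E2 enzyme. They were counted with their families. Cells were bone marrow-derived macrophages of C57BL/6 mice, grown from marrow for 5 days in medium with M-CSF. One EZH2 ChIP-seq library came from cells stimulated for 2 h with lipopolysaccharide (LPS), which comes from the outer membrane of bacteria and is sensed by Toll-like receptor 4. The other EZH2 library came from untreated cells (NT), and the third sample was input DNA, of which no intervals were used here. Both EZH2 libraries used the same antibody, and the labels give no sex or number of mice.

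EZH2 is the catalytic subunit of polycomb repressive complex 2, which methylates lysine 27 of histone H3 at silent, mostly developmental genes with CpG-rich promoters. The proteasome degrades proteins tagged with ubiquitin. Its 20S core is built of alpha and beta subunits, and the 19S cap of ATPases and non-ATPase subunits recognises and unfolds substrates. In immune cells interferon induces the beta subunits Psmb8, Psmb9 and Psmb10 and the activator subunits Psme1 and Psme2, which change the peptides made for antigen presentation. Ubiquitin passes from an E1 enzyme to an E2 conjugating enzyme, and with an E3 ligase to the substrate. Ube2 genes encode the E2 enzymes, some of which carry related modifiers such as NEDD8 or ISG15.

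Each library had a list of enriched intervals, each with 1 summit and the authors' value there, called the summit value below. The LPS library had 4651 intervals with values from 7 to 100 (median 16). The NT library had 9643 intervals with values from 11 to 253 (median 27). The unit of these values, the read depth and any scaling between libraries are not given in the sources used here. With 1 library per condition there was no replicate and no test between conditions, so a lower value or a missing interval in LPS cannot be read as less EZH2. The same holds for the cells, since fewer cells with EZH2 at a gene and less EZH2 per cell cannot be told apart. The LPS values rest on a track whose name says TLR in place of LPS, and which was taken as the only stimulated EZH2 sample. ChIP-seq gives no expression, so the cell type label could not be checked against marker genes.

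Proteasome genes had NT intervals more often than protein-coding genes as a whole, while for LPS their share was lower, with a Wilson interval that takes in the share of all genes. A gene was counted when an interval lay within 2.5 kb of either annotated gene end. Of the 51 Psm genes, 5 had an LPS interval (9.8%, 95% Wilson interval 4.26 to 21%), where 16.1% of all protein-coding genes had one. An NT interval lay at 32 Psm genes (62.7%, 49 to 74.7%), where 38.2% of all genes had one. Every Psm gene with an LPS interval had an NT interval as well, so 5 had both (9.8%, against 15.6% of all genes), 27 had one in NT alone (52.9%, against 22.6%) and 0 in LPS alone, against 0.535%. The other 19 had none. These Wilson intervals cover counting error only and treat genes as independent.

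Ubiquitin-conjugating enzyme genes had intervals of both libraries more often than all genes, though for LPS the Wilson interval of their share takes in the share of all genes. Of the 37 Ube2 genes, 9 had an LPS interval (24.3%, 13.4 to 40.1%, against 16.1%) and 21 an NT interval (56.8%, 40.9 to 71.3%, against 38.2%). All 9 with an LPS interval had both, 12 had one in NT alone (32.4%, against 22.6%), 0 had one in LPS alone, and 16 had none. The direction of the LPS comparison turned when only intervals not below their library's median value were kept, with 2 Ube2 genes (5.41%) beside 9.75% of all genes.

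In both families the median summit values were below those of all genes, by little in NT. The median LPS summit value was 11 over the 5 Psm genes and 15 over the 9 Ube2 genes with an LPS interval, against 18 over all genes with one. The median NT summit value was 24.5 over the 32 Psm genes and 26 over the 21 Ube2 genes, against 28 over all genes with an NT interval. The excess of NT intervals in Psm genes was small or absent among the higher NT intervals. Keeping only NT intervals not below their library's median value, 23.5% of Psm genes and 27% of Ube2 genes had one, beside 21.3% of all genes. With the NT list cut to its 4651 highest intervals, 10 Psm genes (19.6%) and 10 Ube2 genes (27%) had an NT interval, beside 20.6% of all genes. With that list 4 Psm genes and 3 Ube2 genes had an interval in LPS alone, beside 820 of all 21883 genes. Each of these members had an NT interval in the full list, below the cut.

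**Figure D1:**
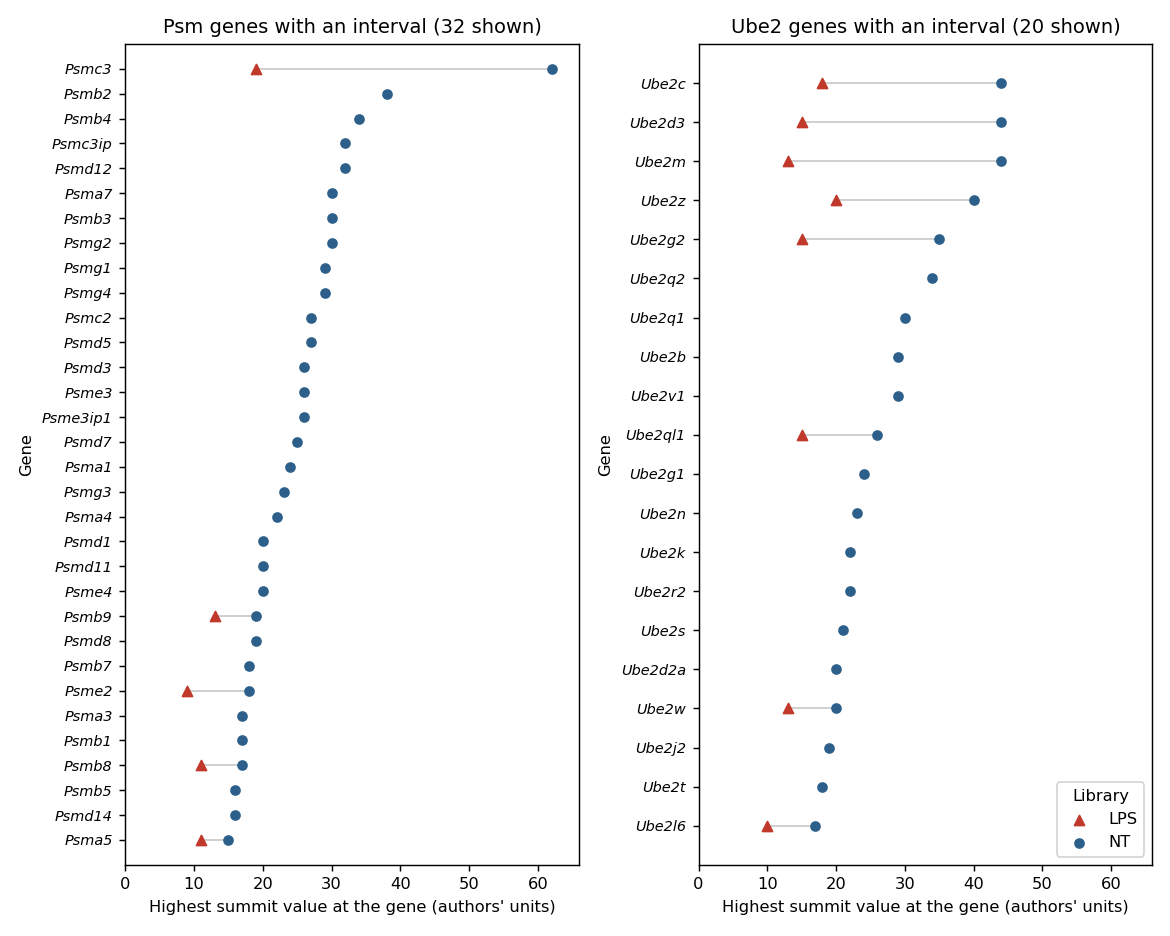
Highest summit value at each gene with an interval, in the authors' units (x axis), in the LPS library (triangles) and the NT library (circles), for 32 Psm genes (left) and 20 of the 21 Ube2 genes with one (right), ordered by NT value. Genes with a circle alone had no LPS interval; the 5 Psm genes with a triangle lie at the top and in the lower part of the NT order, and the 5 Ube2 genes with the highest NT values drawn all have one.

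The 5 Psm genes with an LPS interval were an ATPase, an alpha subunit and 3 interferon-inducible genes of antigen processing. Psmc3, which encodes an ATPase of the 19S cap, had a summit value of 19 in LPS and 62 in NT. This NT value was the highest of the 88 members. Its NT interval ran from 91053712 to 91054720 on chromosome 2 (mm10), with the summit 128 bp from the lower-coordinate end of the gene. Psma5, an alpha subunit of the 20S core, had 11 in LPS and 15 in NT, the lowest NT value of the family. Psma5 was the sole alpha subunit gene with an LPS interval, out of 8, where 16.1% of all genes had one.

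The immunoproteasome genes Psmb8 and Psmb9, neighbours in the major histocompatibility complex on chromosome 17, each had an interval in both libraries. Psmb9, whose product replaces Psmb6 in the immunoproteasome, had 13 in LPS and 19 in NT. The LPS interval ran from 34187108 to 34188243 and the NT interval from 34186927 to 34188468. They covered the start sites of Psmb9 and of Tap1, a peptide transporter gene transcribed in the other direction from 226 bp away. Psmb8, whose product replaces Psmb5, had 11 in LPS and 17 in NT. Its LPS interval ran from 34197319 to 34198681 and its NT interval from 34197341 to 34198845, so both began after the end of Tap1 and reached past the start of Psmb8 at 34198195. Both intervals of each library also lay within 2.5 kb of an end of Tap1, so the values cannot be assigned to 1 gene. Psmb10, the third inducible beta subunit, and Psmb11, a beta subunit of the thymus, had none.

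**Figure D2:**
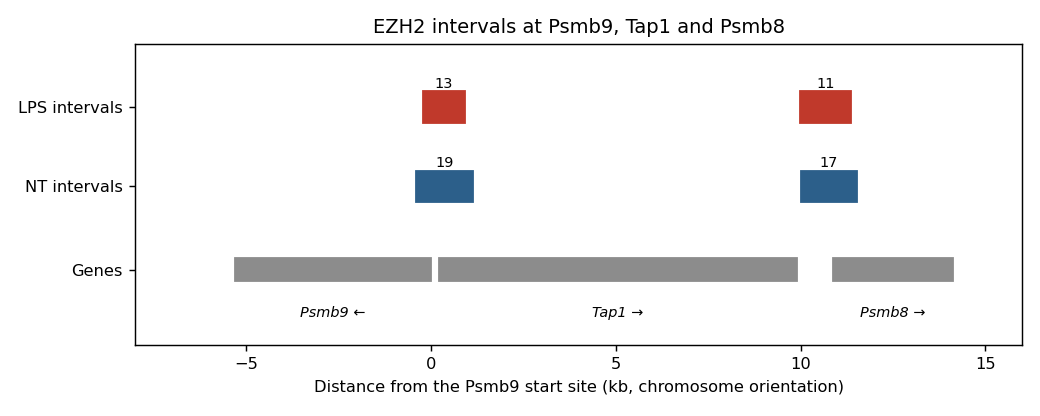
Intervals of the LPS library (top) and the NT library (middle) and the annotated genes (bottom, with arrows for the direction of transcription) around the Psmb9 start site, as distance in kb. Numbers over the intervals are summit values, 13 and 11 in LPS and 19 and 17 in NT; the intervals of the libraries lie over each other at both sites.

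Psme2, the beta subunit of the interferon-inducible proteasome activator, had 9 in LPS and 18 in NT, with the NT summit 771 bp upstream of the gene. That NT interval and the LPS interval also lay at Rnf31, which encodes a subunit of a ubiquitin ligase of inflammatory signalling. Psme1, the alpha subunit of the same activator, had none within 2.5 kb, and its nearest LPS and NT intervals were 9476 and 9507 bp from its ends. Of the other activator and inhibitor genes, Psme3 (26) and Psme4 (20) had an NT interval alone, and Psme2b and the inhibitor Psmf1 had none.

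To show the promoters on which these intervals lay, RefSeq sequences (GRCm38.p6) of 250 bases before to 50 after the start are given 5′ to 3′ on the gene's strand. The 4 Psm genes with an LPS interval and a sequence in the table come first, followed by Psmb4 for contrast, which encodes a 20S beta subunit and had an NT interval of 34 and none in LPS. Capitals mark matches on either strand to 6 short motifs, namely TGACNNNGC (antioxidant response element core), CCAAT (NF-Y), CCGGAAG (ETS), GGGCGG (GC box), the interferon-stimulated response element core (GAAA and GAAA with 2 bases between) and the NF-kB core (GGGA and CC with 4 bases between).
Psmb9 (chr17:34187281-34187580, minus strand): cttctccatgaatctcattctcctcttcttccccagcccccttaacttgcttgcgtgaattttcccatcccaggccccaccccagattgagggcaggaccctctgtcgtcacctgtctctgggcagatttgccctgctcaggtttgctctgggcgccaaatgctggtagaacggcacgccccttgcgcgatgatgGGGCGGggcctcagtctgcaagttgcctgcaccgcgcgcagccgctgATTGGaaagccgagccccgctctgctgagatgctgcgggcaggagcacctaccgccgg
Psmb8 (chr17:34197945-34198244, plus strand): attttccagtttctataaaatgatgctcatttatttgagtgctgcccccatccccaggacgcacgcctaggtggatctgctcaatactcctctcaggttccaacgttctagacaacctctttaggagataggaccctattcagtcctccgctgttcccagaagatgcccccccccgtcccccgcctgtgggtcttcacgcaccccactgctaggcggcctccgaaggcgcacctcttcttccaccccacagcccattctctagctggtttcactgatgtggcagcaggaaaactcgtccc
Psme2 (chr14:55591052-55591351, minus strand): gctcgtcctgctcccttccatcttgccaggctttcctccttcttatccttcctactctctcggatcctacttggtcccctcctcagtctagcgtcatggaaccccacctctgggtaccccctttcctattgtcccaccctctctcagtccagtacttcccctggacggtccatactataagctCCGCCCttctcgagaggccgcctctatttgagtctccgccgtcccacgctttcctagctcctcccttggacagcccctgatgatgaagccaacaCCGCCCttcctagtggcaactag
Psma5 (chr3:108256676-108256975, plus strand): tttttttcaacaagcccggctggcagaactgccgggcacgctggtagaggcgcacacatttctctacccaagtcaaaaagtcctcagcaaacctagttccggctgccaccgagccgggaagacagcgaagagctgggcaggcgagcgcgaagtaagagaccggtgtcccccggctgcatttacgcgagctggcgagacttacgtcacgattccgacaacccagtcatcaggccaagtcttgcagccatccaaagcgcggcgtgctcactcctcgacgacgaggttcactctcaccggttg
Psmb4 (chr3:94886909-94887208, minus strand): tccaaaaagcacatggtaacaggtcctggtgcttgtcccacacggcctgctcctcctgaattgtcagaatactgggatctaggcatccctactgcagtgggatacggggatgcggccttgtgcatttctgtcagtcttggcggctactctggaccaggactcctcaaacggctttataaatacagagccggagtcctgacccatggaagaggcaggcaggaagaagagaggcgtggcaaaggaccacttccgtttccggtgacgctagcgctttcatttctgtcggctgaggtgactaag
All 300 bases of the promoters of Psmb9, Psmb8, Psme2 and Psma5 lay under an interval of each library, and those of Psmb4 under the NT interval. The NT summit of Psmb8 lay inside the printed window, and the other summits of these 5 genes lay outside it. Psmb9 held 1 CCAAT and 1 GC box and Psme2 held 2 GC boxes. None of the 6 motifs was found in the windows of Psmb8, Psma5 and Psmb4, which says nothing of the factors. CpG dinucleotides numbered 17 in Psmb9, 11 in Psmb8, 11 in Psme2, 26 in Psma5 and 12 in Psmb4.

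Apart from Psmb8 and Psmb9, no beta subunit gene had an LPS interval, where 16.1% of all genes had one. With so few genes, their LPS share cannot be told apart from that of all genes. NT intervals were counted at a larger share of the constitutive core genes than over all genes, of which 38.2% had one. These genes are also few, and the intervals counted for Psmb3 and Psmb1 lay away from the gene. Of the 7 constitutive beta subunit genes, 6 had an NT interval, with values from 16 to 38 (median 24). Psmb2 had 38, Psmb4 34 and Psmb3 30 in NT, and none of them had an LPS interval within 2.5 kb. Of the catalytic subunits, Psmb5 had 16 and Psmb7 18 in NT alone, and Psmb6 had no interval. The Psmb3 interval is a weak assignment, since its edge lay 2460 bp from the start of Psmb3 and it also lay at Pcgf2, which encodes a polycomb protein. The nearest LPS interval to Psmb3, with a value of 17, was 2505 bp away and so just outside the window. Psmb1 was also counted on an NT interval away from the gene, with its edge 1274 bp off, and shared with Tbp. Of the 8 alpha subunit genes, 5 had an NT interval, with values from 15 to 30 (median 22). Psma7 had 30, while Psma2, Psma6 and the testis subunit gene Psma8 had none.

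Genes of the 19S cap carried NT intervals in 9 of 17 cases and an LPS interval in 1, Psmc3. The shares over all genes were 38.2% for NT and 16.1% for LPS. The cap genes, and the ATPase and non-ATPase genes among them, are too few to be told apart from all genes in either share. Of the 6 ATPase genes, Psmc2 (27) had an NT interval beside Psmc3, and Psmc1, Psmc4, Psmc5 and Psmc6 had none. Of the 11 non-ATPase genes, 7 had an NT interval, with values from 16 to 32 (median 20), and 0 had an LPS interval. Psmd12, a subunit of the cap's lid, had 32 in NT. Psmd14, which encodes the deubiquitinase of the cap, had an NT interval of 16 at its 3′ end, 1910 bp away and shared with Tbr1, a transcription factor gene of neurons. The nearest LPS interval to Psmd14, with a value of 61, was 3116 bp away. Psmd4, a ubiquitin receptor of the cap, and Psmd2, Psmd6 and Psmd13 had none.

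Assembly chaperone genes had NT intervals in 5 of 7 cases and LPS intervals in 0, beside 38.2% and 16.1% of all genes. With so few genes, their LPS share cannot be told apart from that of all genes. Psmg2 (30), Psmg1 (29), Psmg4 (29), Psmd5 (27) and Psmg3 (23) had NT intervals, and Psmd9 and Psmd10 had none. The intervals of Psmg2 and Psmg1 were shared with Cep76 and Brwd1. The genes whose names mislead, Psmc3ip (32) and Psme3ip1 (26), also had NT intervals alone. Beyond the 10 highest, the remaining 17 Psm genes with an interval in NT alone had values from 16 to 27 (median 20).

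The 9 Ube2 genes with an LPS interval included the 6 with the highest NT values of the family. Ube2z, an E2 loaded by the E1 enzyme UBA6, had 20 in LPS and 40 in NT. Ube2c, which works with the anaphase-promoting complex in mitosis, had 18 in LPS and 44 in NT, and its intervals also lay at Dnttip1. Ube2d3, an E2 used by many ligases, had 15 in LPS and 44 in NT. At Ube2d3 a second LPS interval, with a value of 12, met the same NT interval, which was the widest of the family at 2160 bp. Ube2g2, an E2 of protein degradation at the endoplasmic reticulum, had 15 in LPS and 35 in NT. LPS values were thus from 15 to 20 at these 4 genes, which had NT values from 35 to 44.

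Enzymes for ubiquitin-like modifiers were among them. Ube2m, an E2 for NEDD8, had 13 in LPS and 44 in NT. Ube2l6, the interferon-inducible E2 for ISG15, had 10 in LPS and 17 in NT, the lowest NT value of the family. Ube2f, the other NEDD8 E2, had none. Among other genes with an LPS interval, Ube2ql1 had 15 in LPS and 26 in NT, and Ube2w, an E2 that modifies the amino terminus of proteins, had 13 in LPS and 20 in NT.

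The promoters of Ube2l6 and Ube2z are shown as those with the lowest and the highest LPS value of the family, with capitals for the same motifs.
Ube2l6 (chr2:84798578-84798877, plus strand): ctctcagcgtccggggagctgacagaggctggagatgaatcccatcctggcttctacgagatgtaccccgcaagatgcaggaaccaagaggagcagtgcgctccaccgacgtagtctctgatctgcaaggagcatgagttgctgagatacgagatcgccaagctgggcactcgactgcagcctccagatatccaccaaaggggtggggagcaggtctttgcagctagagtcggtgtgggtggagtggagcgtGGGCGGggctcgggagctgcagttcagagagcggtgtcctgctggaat
Ube2z (chr11:96065315-96065614, minus strand): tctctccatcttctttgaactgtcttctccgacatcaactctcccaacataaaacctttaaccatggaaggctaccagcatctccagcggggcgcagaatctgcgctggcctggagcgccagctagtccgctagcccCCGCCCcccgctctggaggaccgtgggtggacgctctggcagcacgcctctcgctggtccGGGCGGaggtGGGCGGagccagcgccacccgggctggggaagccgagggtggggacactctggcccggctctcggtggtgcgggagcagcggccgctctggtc
Each lay wholly under an interval of both libraries. The LPS and the NT summit of Ube2l6 and the NT summit of Ube2z were inside the printed window. Ube2l6 held 1 GC box and 15 CpG dinucleotides, and Ube2z held 3 GC boxes and 23 CpG dinucleotides.

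In NT alone, Ube2 values were from 18 to 34 (median 22.5). Ube2q2 had 34, at its 3′ end and shared with Fbxo22. Ube2q1 had 30, Ube2b, which encodes an E2 for histone H2B, had 29, and Ube2g1 had 24. The E2 pair that builds the non-degradative chains of Toll-like receptor signalling, Ube2n and Ube2v1, had 23 and 29 in NT and no LPS interval. Ube2n had a second NT interval of 21, inside the gene. Ube2k and Ube2r2 had 22, Ube2s, which extends chains on the anaphase-promoting complex, had 21, Ube2d2a had 20, and Ube2j2 and Ube2t had 19 and 18. Of the 2 inactive variants, Ube2v1 had the interval just given and Ube2v2 none.

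Of the 31 other Ube2 genes, among them the misnamed Ube2cbp, 6 had an LPS interval and 17 an NT interval, and 14 had neither. Over all genes, 16.1% had an LPS interval and 38.2% an NT interval. The 14 Ube2 genes with neither were Ube2a, Ube2d1, Ube2d2b, Ube2e1, Ube2e2, Ube2e3, Ube2h, Ube2j1, Ube2l3, Ube2o, Ube2u, Ube2cbp, Ube2dnl1 and Ube2dnl2. Some paralogs differed in having an interval, as did Ube2b and Ube2a or Ube2d3 and Ube2d1. Others were alike, as were Ube2g1 and Ube2g2, each with an NT interval, and Ube2e1 and Ube2e2, with none. Ube2l3, an E2 of linear chain assembly, lay 6662 bp from its nearest NT interval, and Ube2d1 16442 bp. Ube2o lay just outside the window, with an LPS interval of 55 at 2895 bp and an NT interval of 111 at 2967 bp. Both values are above those of every member inside the window in the same library.

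Over all genes, the share of those with an NT interval that also had one in LPS was higher at higher NT values, and the members are given by range of that value. The shares of Psm genes were not in this order, and those of Ube2 genes were not in the 2 lowest ranges. Each range held few members, and the Wilson intervals of neighbouring ranges overlap. A departure of the members from the order of all genes therefore cannot be established. Of the genes with an NT interval, 15.6% of the 32 Psm genes (Wilson interval 6.86 to 31.8%) and 42.9% of the 21 Ube2 genes (24.5 to 63.5%) also had an LPS interval, beside 40.9% of all 8359 such genes. With NT values up to 20, 4 of 13 Psm genes (30.8%, 12.7 to 57.6%) and 2 of 5 Ube2 genes (40%, 11.8 to 76.9%) had an LPS interval, beside 12.8% of 1529 genes in all. The 4 Psm genes were Psma5, Psmb8, Psmb9 and Psme2, and the Ube2 genes were Ube2l6 and Ube2w. From 21 to 30, 0 of 14 Psm genes (0 to 21.5%) and 1 of 9 Ube2 genes (1.99 to 43.5%) had one, beside 25.3% of 3361 genes. From 31 to 40 it was 0 of 4 Psm genes and 3 of 4 Ube2 genes, beside 46% of 1677 genes. From 41 to 50 it was 3 of 3 Ube2 genes, beside 77.4% of 676 genes. Over 50 it was 1 of 1 Psm gene, Psmc3, beside 96.4% of 1116 genes. In sum 5 of the 32 Psm genes had an LPS interval, where the shares of all genes in these 5 ranges would give 8.01, and 9 of the 21 Ube2 genes, where they would give 7.08.

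**Figure D3:**
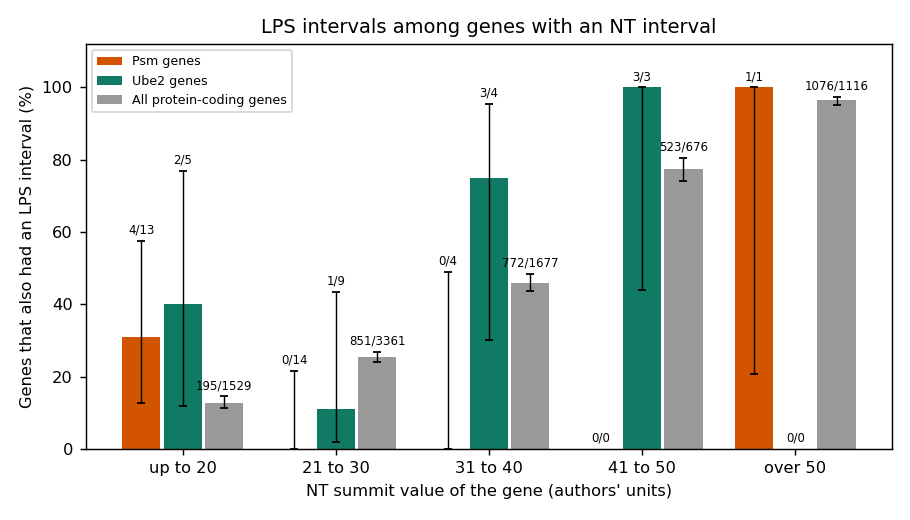
Percentage of genes with an NT interval that also had an LPS interval (y axis), by range of the NT summit value (x axis), for Psm genes, Ube2 genes and all protein-coding genes; bars start at 0, error bars are 95% Wilson intervals and the fractions are gene numbers. Psm genes have 4 of 13 in the lowest range and 0 of 14 in the next, while the share over all genes is higher in each range than in the one before, between 12.8 and 96.4%.

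Where both libraries had an interval, the ratio of LPS to NT summit value, which is not scaled to depth, had a median of 0.647 over 5 Psm genes, 0.429 over 9 Ube2 genes and 0.491 over all 3417 such genes. The ratio depends on the NT value, because a low NT value with a listed LPS interval cannot give a low ratio. The ratio of 0.306 at Psmc3 was reached or passed by 128 of the 132 genes that had both intervals and an NT value within 2 of its own. Ube2m, with 0.295, was in a like place, since 237 of 264 genes of like NT value (89.8%) had a ratio as high or higher. At the other end, the ratio of 0.684 at Psmb9 was reached by 53 of 211 genes of like NT value (25.1%), that of 0.65 at Ube2w by 28.6%, that of 0.577 at Ube2ql1 by 30.2% and that of 0.5 at Ube2z by 36.8%. Psmb8 (0.647), Psma5 (0.733) and Ube2l6 (0.588) lay near the middle, with 50.7%, 48.1% and 68.1% of like genes at their ratio or higher, and Psme2 (0.5) lower, with 90.8%. The error of these ratios is not known.

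**Figure D4:**
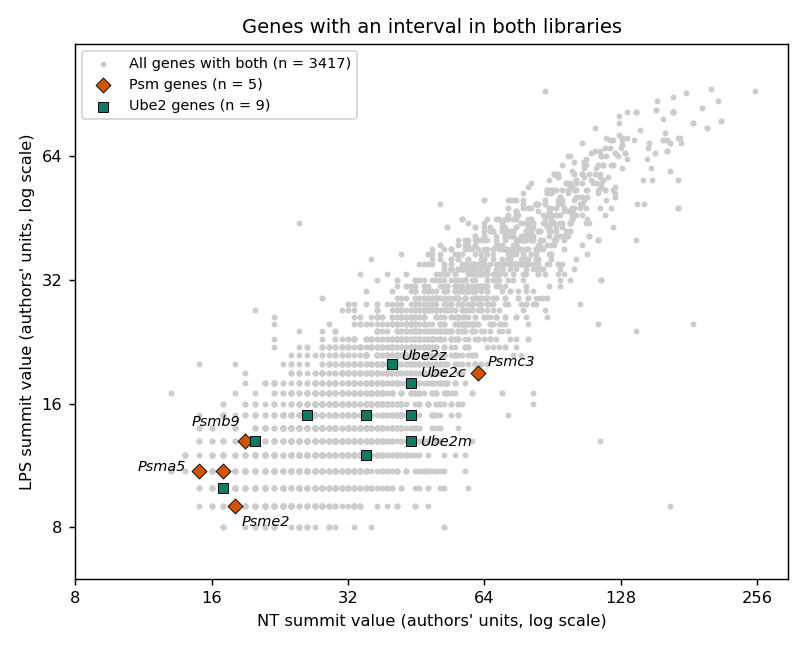
LPS summit value (y axis) against NT summit value (x axis), in the authors' units on log scales, for the 3417 protein-coding genes with an interval in both libraries (grey), 5 Psm genes (diamonds) and 9 Ube2 genes (squares). The members lie in the lower part of the cloud, with LPS values from 9 to 20; Psmc3, at 19 in LPS and 62 in NT, lies near its lower edge.

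The intervals at members lay mostly over the start of the gene. Strand was given for 73 of the 88 members. All 10 members with an LPS interval and a strand had its summit nearer to the 5′ than to the 3′ end, beside 86.2% of all genes with an LPS interval. For NT it was 23 of 25 Psm genes and 16 of 17 Ube2 genes, beside 88.7% of all genes, and the exceptions were Psmd14, Psmd8 and Ube2q2. NT summits lay within 500 bp of a gene end at 24 of 32 Psm genes and 18 of 21 Ube2 genes, beside 62.3% of all genes with an NT interval. For LPS it was 4 of 5 and 8 of 9, beside 47.5%. The median NT interval width was 1073.5 bp at Psm genes and 1108 bp at Ube2 genes, beside 1321 bp over all genes with an NT interval. Median LPS widths were 1136 bp and 903 bp, beside 1560 bp. Intervals shared with another protein-coding gene made up 3 of 5 Psm genes in LPS and 14 of 32 in NT, and 1 of 9 and 3 of 21 Ube2 genes, beside 28.2% of all genes in LPS and 35.6% in NT. With shared intervals left out, 2 Psm genes (Psmc3 and Psma5) had an LPS and 18 an NT interval. For Ube2 genes the numbers were 8 and 18. The share of all genes under this limit was not computed, so these counts have no background beside them.

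Over all genes, the share with an interval was higher with more CpG dinucleotides in the promoter, in both libraries. The part of CpG number in the family counts was not tested. The LPS shares of both families were not in this order in every range, but the ranges held few members. The promoter table held 43 Psm and 30 Ube2 genes and 17491 protein-coding genes. The median CpG number in the 300 bases was 19 in Psm, 26 in Ube2 and 13 in all promoters. With 30 or more CpG dinucleotides, an LPS interval was found at 0 of 4 Psm genes, 1 of 12 Ube2 genes (8.33%) and 28.2% of all genes, and an NT interval at 3 of 4 Psm genes, 9 of 12 Ube2 genes (75%) and 69.9% of all genes. With 20 to 29, an LPS interval was found at 1 of 15 Psm genes, 4 of 11 Ube2 genes and 23.4% of all genes, and an NT interval at 12 of 15 Psm genes (80%), 6 of 11 Ube2 genes (54.5%) and 62.1% of all genes. With 10 to 19, an LPS interval was found at 3 of 20 Psm genes (15%), 1 of 4 Ube2 genes and 19.2% of all genes, and an NT interval at 10 of 20 Psm genes (50%), 2 of 4 Ube2 genes and 46.3% of all genes. With 0 to 9, none of the 4 Psm and 3 Ube2 genes had an interval, beside 5.38% of all genes in LPS and 10.7% in NT. Those 7 were Psma6, Psmb10, Psmb11, Psme2b, Ube2u, Ube2dnl1 and Ube2dnl2. Over all CpG numbers, an NT interval was found at 58.1% of Psm and 56.7% of Ube2 genes with a promoter and 37.9% of all genes, so the families stood further above all genes than they did within each range. Ube2j1, with the highest CpG number of the members, 52, had no interval.

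**Figure D5:**
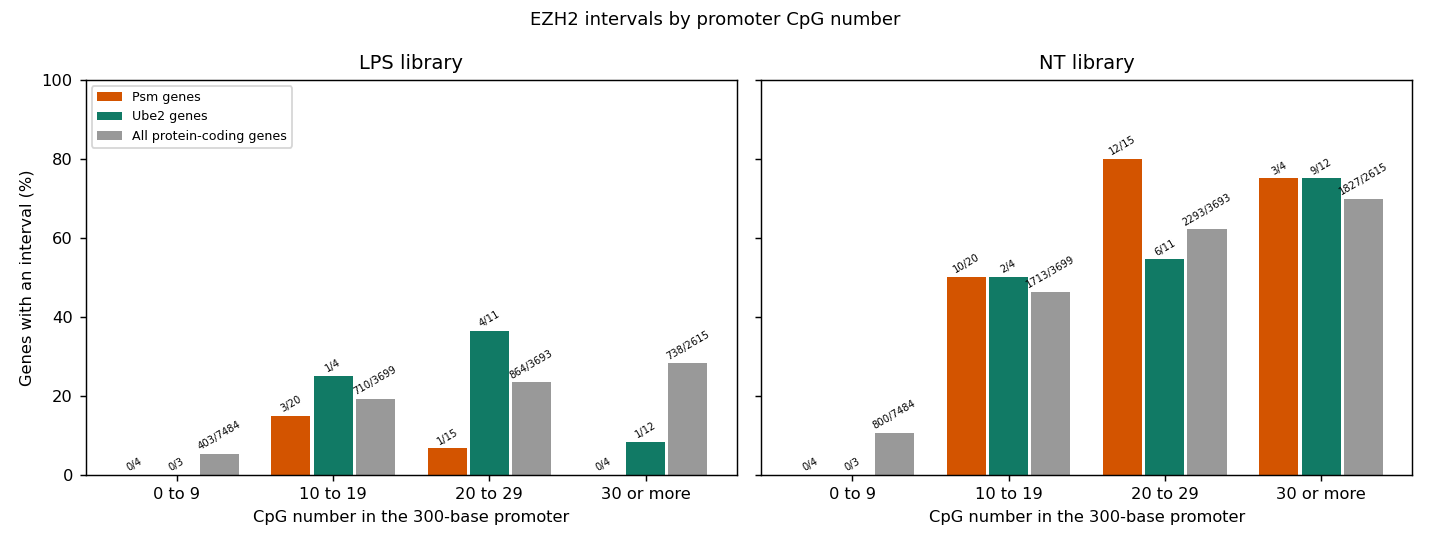
Percentage of genes with an interval (y axis) in the LPS library (left) and the NT library (right) by CpG number of the 300-base RefSeq promoter (x axis), for Psm genes, Ube2 genes and all protein-coding genes with a promoter in the table; bars start at 0 and the fractions are gene numbers. No member with fewer than 10 CpG dinucleotides has an interval; in NT the bars of all genes stand between 10.7% at 0 to 9 and 69.9% at 30 or more.

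The ETS motif was found in 15 of 43 Psm promoters (34.9%), 5 of 30 Ube2 promoters (16.7%) and 11.9% of all promoters. Within Psm genes it was in 9 of 21 promoters with an interval in NT alone, 6 of 18 with none and 0 of 4 with an interval in both. Over all promoters these classes had it in 22%, 8.57% and 10.2%, in the same order. The interferon-stimulated response element core was in 5 of 43 Psm promoters (11.6%), 1 of 30 Ube2 promoters and 3.4% of all promoters. Among Psm promoters, 2 of 21 with an interval in NT alone held it, 3 of 18 with none and 0 of 4 with both. Over all promoters, these classes held it in 2.17%, 4.05% and 2.37%. The antioxidant element core was in 14% of Psm, 13.3% of Ube2 and 13.1% of all promoters. CCAAT was in 37.2%, 30% and 39.2%, the GC box in 55.8%, 66.7% and 46.3%, and the NF-kB core in 25.6%, 23.3% and 22.6%, in the same order. A match here is a description of letters and not a binding site.

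Other genes of the ubiquitin and proteasome pathway were counted in the same way. Of 29 such genes, 4 had an LPS interval (13.8%, against 16.1% of all genes) and 18 an NT interval (62.1%, against 38.2%), and 0 had one in LPS alone. Among the 4 were Nfe2l2 (24 in LPS and 42 in NT) and Nfe2l1 (17 in LPS and 46 in NT), which encode transcription factors of proteasome genes, and Uba7 (15 in LPS and 33 in NT), the E1 enzyme for ISG15. Both transcription factor genes had an NT interval. So did 4 of 8 E1 enzyme genes, 5 of 8 genes of proteasome-associated proteins and 3 of 7 shuttle factor genes. Uba7 and Ube2l6, which act in turn on ISG15, thus both had intervals in both libraries. The gene Inka1 had the same LPS and NT values as Uba7, so these intervals may not belong to Uba7 alone.

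Ribosomal protein genes, which all cells use, and Hox cluster genes, a known family of polycomb targets, were set beside the members. Of 81 ribosomal protein genes, 19 had an LPS interval (23.5%) and 56 an NT interval (69.1%), with a median LPS value of 12 and a median NT value of 31. Of 39 Hox cluster genes, 34 had an LPS interval (87.2%) and 37 an NT interval (94.9%), with medians of 45 and 80. The Wilson intervals of the LPS share, 4.26 to 21% for Psm and 13.4 to 40.1% for Ube2 genes, overlapped that of ribosomal protein genes (15.6 to 33.8%) and not that of Hox cluster genes (73.3 to 94.4%). Some neighbouring Hox genes, such as Hoxd9 and Hoxd10, had the same values in both libraries and may share intervals. The Wilson interval of the Hox genes may therefore be too narrow. No test of these differences was made, since genes are not replicates.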

How the data were processed

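EZH2 ChIP-seq of mouse macrophages comprised 1 LPS library, 1 NT library and 1 input DNA library. Per the submitters' processing notes, BWA, SICER and the build mm10 were used, with no version or role given; SICER joins windows into broad islands. The authors deposited 1 file with 5 tracks, namely summits and intervals of each EZH2 library and merged regions. Each summit carries a deposited score, a whole number; the sources used here do not give its unit or normalization, and read depth is unknown, so no interval for single values can be given. Other deposited columns hold positions, printed here 1-based.

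Intervals were joined to RefSeq genes (GRCm38.p6) with Python 3.11.15 and pandas 2.3.3: at least 1 bp within 2.5 kb of either gene end, with the highest value taken per gene. The overlap step was checked on simulated data. Strand came from the RefSeq promoter table, using the promoter nearest the gene's 5′ end. The members and lists were chosen with earlier results of these data known. Named genes were every member with an LPS interval, up to 10 per family with the highest value in NT alone, a fixed list of members by role, and those with none; some genes that meet this rule are counted and not reported by name here. Of the pathway list, 1 symbol was not in the gene table. Alternatives were other windows, thresholds, list lengths, merging, shared intervals, start sites and memberships. No p-value was computed, since each condition had 1 library.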

Additional observations from a re-analysis of the deposited data

How the results depend on the processing

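Of 170 values recomputed under 12 alternatives, 147 stayed within 1.5 times the reported one. The other 23 follow, and their cause was not tested. A stricter limit leaves fewer intervals in any case. No paired analysis was possible because there was 1 library in a condition. Keeping only intervals not below their library's median value, Psm genes numbered 1 with an LPS interval (Psmc3), 12 with an NT interval, 1 with both and 11 in NT alone, with a median LPS value of 19 and a ratio of 0.306; Ube2 genes numbered 2 with an LPS interval, 10 with an NT interval and 2 with both. An LPS interval was then at 1.96% of Psm, 5.41% of Ube2 and 9.75% of all genes, so that Ube2 genes stood below all genes, and an NT interval at 23.5%, 27% and 21.3%, in the same order. With the NT intervals reduced to as many as LPS had, Psm genes numbered 10 in NT and 1 in both (ratio 0.306). There were 9 Psm genes in NT alone and 4 in LPS alone. Ube2 genes numbered 10 in NT, and of these 4 lacked an LPS interval, while 3 others had one in LPS alone. Over all 21883 genes, 820 then had one in LPS alone. The members in LPS alone had NT intervals in the full list. With intervals shared with a gene outside the family left out, Psm genes numbered 2 in LPS, 18 in NT, 2 in both and 16 in NT alone. Ube2 genes then numbered 8 in LPS and 18 in NT, and the share of all genes was not computed. With summits within 500 bp of a gene end, an alternative chosen after seeing the data, 3 Psm genes had both and 1 LPS alone. Over all genes, 335 of 21883 then had LPS alone. The Psm gene was Psme2, which had an NT interval with its summit 771 bp from the gene end, outside that limit. Leaving out Ube2cbp was also chosen after seeing the data. The 1 kb and 5 kb windows, the gene body, the start site alone, the summit in place of the interval, merging and leaving out the misnamed genes changed no value by over 1.5 times. The start site alone was run on the 43 Psm and 30 Ube2 genes with a strand, so its counts come from fewer genes. Of these, 4 Psm (9.3%) and 6 Ube2 genes (20%) had an LPS interval, beside 14.2% of all genes with a strand. Depth is unknown, and the lowest listed value was 7 in LPS and 11 in NT, so weaker binding was not detectable.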
